A study of Mus musculus with 4 samples.

Results

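The genes described here are the G1 cyclins, their kinases and 2 retinoblastoma proteins, namely Ccnd1, Ccnd2, Ccnd3, Ccne1, Ccne2, Cdk2, Cdk4, Cdk6, Rb1 and Rbl1. They were chosen by name, with earlier results of these data known. They are 10 of the 18193 genes that have a probe set with a single gene symbol on the array. Every such probe set of the 10 genes was kept, 30 in all. Each gene was represented by its lead probe set, which had the highest log2 signal when averaged over the 4 arrays. Doxycycline-treated cells of lines 8534 and 8542 (2 µg/ml for 24 hours, ICN1 off) were compared with untreated cells of the same lines (ICN1 on), 1 Affymetrix array for each line and condition. Both lines were established from primary mammary tumors of 2 female MMTV-tTA/TOP-ICN1 mice of FVB/N;B6 strain. In all 4 samples the cells carry tTA, expressed from the MMTV promoter, and human ICN1 (intracellular NOTCH1) under a tet-responsive promoter, which doxycycline switches off. No untreated line without the transgene and no doxycycline-treated line without it was on the arrays, so that an effect of doxycycline itself and the loss of ICN1 cannot be told apart.

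In G1, D-type cyclins bind CDK4 or CDK6 and E-type cyclins bind CDK2. These kinases phosphorylate the pocket proteins, RB (gene Rb1), p107 (Rbl1) and p130 (Rbl2), which then release E2F transcription factors, and the E2F factors in turn switch on genes of DNA synthesis. Ccne1, Ccne2, Cdk2 and Rbl1 are themselves known E2F targets, Ccnd1 is known as a NOTCH target and as an oncogene of the mammary gland, and Cdk4 is a known target of MYC.

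Promoter sequences of these genes came from RefSeq (GRCm38.p6), whose table held 6 of the 10 genes in 7 windows of 300 bases, each from 250 bases before to 50 bases after a gene start. Ccnd1, Ccnd2, Ccne2 and Rb1 had no entry. Rbl1 (chr2:157204485-157204784, minus strand) and Cdk2 (chr10:128705002-128705301, minus strand) are shown because both fell with doxycycline and hold an E2F word, which is in capitals. No E2F word stands in the other windows, among them those of Ccne1 and Cdk6, which also fell. Cdk4 (chr10:127063285-127063584, plus strand) is shown as a gene that did not pass the test and holds E-boxes, the words that MYC binds, which are in capitals. Ccnd3 did not pass either, and neither of its windows holds an E2F word or an E-box.
Rbl1: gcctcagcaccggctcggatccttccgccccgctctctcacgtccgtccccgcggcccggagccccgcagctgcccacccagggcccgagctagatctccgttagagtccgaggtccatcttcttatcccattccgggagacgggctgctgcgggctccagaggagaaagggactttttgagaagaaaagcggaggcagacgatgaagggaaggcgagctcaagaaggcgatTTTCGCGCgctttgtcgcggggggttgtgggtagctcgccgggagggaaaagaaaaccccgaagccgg
Cdk2: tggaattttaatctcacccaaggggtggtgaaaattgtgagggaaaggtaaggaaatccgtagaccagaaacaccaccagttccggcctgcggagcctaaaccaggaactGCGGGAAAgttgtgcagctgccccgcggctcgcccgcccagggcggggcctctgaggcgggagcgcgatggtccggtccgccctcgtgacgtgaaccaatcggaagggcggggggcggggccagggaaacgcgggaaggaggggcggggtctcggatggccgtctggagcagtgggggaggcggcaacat
Cdk4: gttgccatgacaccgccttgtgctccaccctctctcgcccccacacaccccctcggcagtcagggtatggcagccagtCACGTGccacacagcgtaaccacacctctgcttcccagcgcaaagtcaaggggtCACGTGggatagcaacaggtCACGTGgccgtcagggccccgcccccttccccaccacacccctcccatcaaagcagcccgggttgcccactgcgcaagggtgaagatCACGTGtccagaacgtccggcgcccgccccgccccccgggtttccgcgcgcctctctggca
The E2F words searched were TTTCCCGC, TTTGGCGC, TTTCGCGC and TTTGCCGC, on both strands. The word of Rbl1 lies 18 to 11 bases before the start and that of Cdk2, TTTCCCGC on the opposite strand, 140 to 133 bases before it. Of all 32851 promoter windows, 2.26% hold at least 1 of these words. The E-box CACGTG, which reads the same on both strands, stands 4 times in the Cdk4 window and once in that of Cdk6, and 7.15% of all windows hold it. As many as 4 copies stand in 8 windows of the 32851. The RBPJ word GTGGGAA, of the factor that brings ICN1 to DNA, was searched on both strands as well. It stands in none of the 7 windows and in 6.38% of all windows, and none of the words found overlaps another. These matches are a description of the letters in short windows.

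The arrays were alike in overall signal, with a median probe set at 29.1 to 30.5 units of MAS5 signal. The log2 difference between the 3' and 5' control probe sets was 0.25 to 0.30 for β-actin and, with the opposite sign, -0.45 to -0.37 for Gapdh. The NOTCH target Hey1 was at 96.4 and 101 units in treated 8534 and 8542 cells, against 1138 and 762 units in untreated cells (limma adjusted p = 0.000283). Nrarp and Dtx1 also fell, with mean log2 changes of -4.71 and -1.76 (limma adjusted p = 7.86e-05 and 0.00143), and Hes1 had a mean log2 change of -0.60 (limma adjusted p = 0.0579). The probe set of the mouse Notch1 gene was at 789 and 915 units in treated and 1532 and 1291 units in untreated 8534 and 8542 cells (limma adjusted p = 0.0204). Whether it detects the human transgene was not tested. The 6 luminal epithelial markers summed to 22650.5 and 16800 units in treated and 19755 and 17510 units in untreated 8534 and 8542 cells, and none lay under 5.52 units, the 20th percentile of all values. With doxycycline Elf5 and Krt19 fell by 2.01 and 0.87 on the log2 scale (limma adjusted p = 0.00116 and 0.00302), Krt8 and Krt18 rose by 0.47 and 0.54 (limma adjusted p = 0.0295 and 0.0163), and Epcam and Cdh1 did not pass. Of 5 endothelial markers 4 were tested and 1, Tek, fell (log2 change -2.10, limma adjusted p = 0.0303), and the list summed to 134 and 158 units in treated and 270 and 148 units in untreated 8534 and 8542 cells. Of 5 leukocyte markers 3 were tested and none was called with doxycycline. They summed to 299 and 92.2 units in treated and 160 and 90.9 units in untreated cells, with Ptprc at 6.08 to 7.20 units, Cd68 at 34.6 to 67.9 units and Lyz2 at 22.5 to 214 units. No basal or fibroblast marker was called with doxycycline. The part of the markers that moved in the changes of the 10 genes was not tested.

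After 24 hours of doxycycline 6 of the 10 genes were called lower, each with a fall in both lines, and none was called higher. Ccnd1, Ccne1, Ccne2, Cdk2, Cdk6 and Rbl1 fell, whereas Ccnd2, Ccnd3, Cdk4 and Rb1 did not pass the test. Calls came from limma, with a term for cell line, among 33778 probe sets whose mean log2 signal was at least 2.94 (7.68 units), and a gene was called at a Benjamini-Hochberg adjusted p under 0.05. Among lead probe sets of all 15070 genes tested, 6.95% were called lower and 4.76% higher. By the rule of the study's methods, a change past 2-fold in each line, the same 6 genes were lower and none was higher, against 4.42% and 3.09% of the lead probe sets of all genes. The median log2 change of the 10 lead probe sets was -1.48 in 8542 cells and -1.21 in 8534 cells, against 0.00 and 0.01 over all genes tested. Of their 30 probe sets 23 lay above the expression filter, and of these 10 were called lower and none higher (5.54% and 3.69% of all probe sets tested). Past 2-fold in each line were 13 of the 30 on the lower side and 1 on the higher side (4.4% and 3.44% of all probe sets). Of the lower ones, 1416124_at of Ccnd2, 1447617_at of Cdk2 and 1454293_at of Rbl1 lay under the filter, as did the higher one. The calls rest on the modelled spread. Without the block 1 of the 10 genes, Ccnd1, passed, and of all 33778 probe sets 83 were called lower and 9 higher. Without an intensity trend in the variance none of the 10 genes passed, and 0 of all probe sets were called. In each of these fits 6 of the genes had an unadjusted p under 0.05. The share over all probe sets was not counted, so that number cannot be set against a background. In bulk RNA, fewer cells of one kind and less RNA per cell cannot be told apart.

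**Figure D1:**
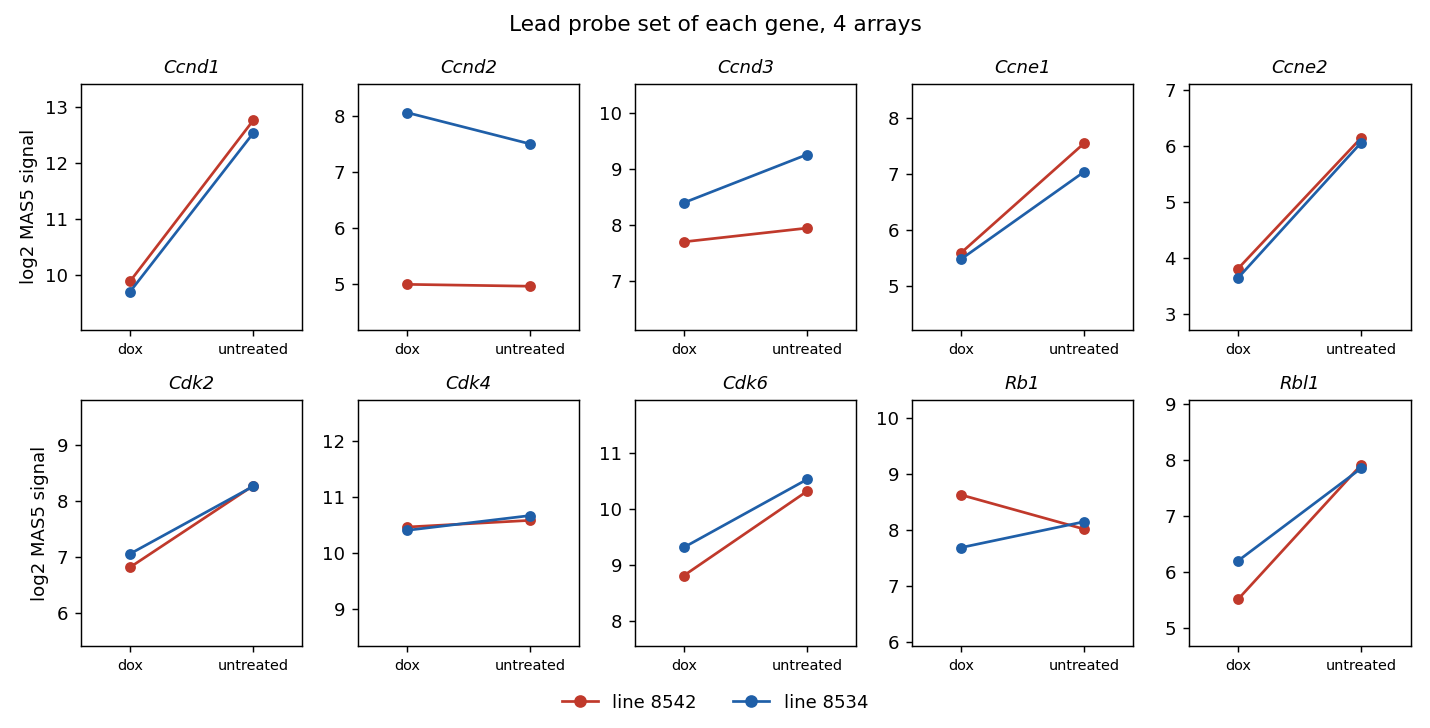
Log2 MAS5 signal (vertical axis, the same span of 4.4 log2 units in each panel) of the lead probe set of each gene in doxycycline-treated (dox) and untreated cells, 1 point per array, with lines joining the arrays of 1 cell line. Ccnd1, Ccne1, Ccne2, Cdk2, Cdk6 and Rbl1 are lower with doxycycline in both lines, Cdk4 is nearly level, Ccnd2 differs between the lines and Rb1 moves in opposite directions.

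Among the D-type cyclins, only Ccnd1 passed the test. Ccnd1 encodes cyclin D1, and its lead probe set (1448698_at) was at 827 and 941 units in treated 8534 and 8542 cells, against 5899 and 6912 units in untreated cells. Both treated arrays lay far under both untreated arrays, and the lines differed by little. On the log2 scale the mean change was -2.86 ± 0.03 (SD over 2 lines; 95% interval -3.09 to -2.62; limma adjusted p = 7.86e-05). Of the 15070 genes tested, 132 (0.876%) had a lower mean change. The other probe sets gave the same picture. Signals of 1417420_at were 807 and 837 units in treated and 5531 and 6230 units in untreated 8534 and 8542 cells, and those of 1417419_at were 346 and 385 units in treated and 2826 and 4236 units in untreated cells. Their mean log2 fold changes were -2.84 ± 0.08 and -3.25 ± 0.30 (limma adjusted p = 7.86e-05 and 8.98e-05).

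The genes whose pair of changes lay nearest to that of Ccnd1, by Euclidean distance over the log2 changes of the 2 lines, were Ctse, Arrb1, Ncapd2, Rpa2 and Pimreg, with distances between 0.12 and 0.18 among 15069 genes. Ncapd2, a condensin subunit, changed by -2.95 and -2.98 on the log2 scale in lines 8534 and 8542, and Rpa2, a subunit of the single-strand DNA binding protein RPA, by -2.66 and -2.88. Arrb1, which encodes β-arrestin 1, changed by -2.79 and -2.77 and Ctse, the protease cathepsin E, by -2.73 and -2.94.

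Ccnd2, the gene of cyclin D2, set the lines apart more than the conditions. Its lead probe set (1416122_at) was at 31.8 units in treated and 31.1 units in untreated 8542 cells, and at 267 units in treated and 181 units in untreated 8534 cells. The 2 arrays of line 8542 lay under both arrays of line 8534. Averaged over the conditions the signal was 6.99-fold lower in line 8542 (log2 difference -2.81, SE 0.22, limma adjusted p = 0.0019). The difference was of similar size by 3 further probe sets, 1434745_at, 1455956_x_at and 1448229_s_at (7.24-fold, 7.24-fold and 6.48-fold lower in line 8542; limma adjusted p = 0.0057, 0.0108 and 0.0553), and 3.61-fold by 1430127_a_at (limma adjusted p = 0.00967). Of the 5 tested probe sets of Ccnd2, 4 therefore passed, whereas 2.53% of all tested probe sets were called lower in line 8542 and 1.72% higher.

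With doxycycline none of the 5 tested probe sets of Ccnd2 passed. The lead probe set changed by 0.03 in 8542 and by 0.56 in 8534 cells on the log2 scale, a mean of 0.30 (95% interval -0.23 to 0.82; limma adjusted p = 0.504). In line 8534 all 5 were higher with doxycycline, by 0.18 to 0.92. In line 8542 the changes ran from -1.45 to 0.70, with 3 probe sets lower and 2 higher on signals of 4.98 to 46.6 units. The remaining probe sets, 1416124_at and 1416123_at, lay under the filter, with signals of at most 13.0 units.

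Ccnd3, the gene of cyclin D3, was also lower in line 8542. Its lead probe set (1415907_at) was at 209 units in treated and 247 units in untreated 8542 cells, and at 339 units in treated and 615 units in untreated 8534 cells. The lines did not overlap, and the signal averaged over conditions was 2.01-fold lower in line 8542 (log2 difference -1.01, SE 0.18, limma adjusted p = 0.0283). With no filter on level this difference did not pass (adjusted p = 0.0567), nor did it over the mean of the probe sets of the gene (adjusted p = 0.118). Under doxycycline the lead probe set was 1.19-fold lower in 8542 and 1.82-fold lower in 8534 cells, a mean log2 change of -0.55 ± 0.44 (SD, n = 2 lines; 95% interval -0.97 to -0.13 before adjustment) that did not pass over all probe sets (limma adjusted p = 0.113). The other probe sets of Ccnd3 were dim and disagreed. At 6.57 to 37.2 units 1444323_at changed by -0.75 and -1.09 in lines 8534 and 8542, and at 11.1 to 20.7 units 1438805_at changed by 0.13 and 0.89 (limma adjusted p = 0.316 and 0.615).

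Of the 10 genes, Ccnd2 and Ccnd3 were the ones called lower in line 8542 than in line 8534, and none was called higher (3.28% and 2.36% of all genes tested). Markers of several cell types moved with the lines as well. Of 5 basal markers 3 were called lower in line 8542, and their summed signal was 272 units in treated and 224 units in untreated 8542 cells, and 9524 and 6013 units in treated and untreated 8534 cells. Of 6 fibroblast markers 4 were called lower in line 8542, with sums of 148 and 149 units in treated and untreated 8542 cells, and 1091 and 842 units in treated and untreated 8534 cells. On 1 array of each line 1 fibroblast marker lay under 5.52 units. The basal keratin Krt14 was at 10.0 and 15.9 units in treated and untreated 8542 cells and at 869 and 1379 units in 8534 cells, and no basal marker lay under that level on any array. Of the 6 luminal markers Krt8, Krt18 and Epcam were called lower in line 8542, and Krt19 and Elf5 were called higher, with log2 differences of 0.96 and 1.21 (limma adjusted p = 0.00542 and 0.0152). Of 3 leukocyte markers tested 1 was called, Lyz2, which was 5.47-fold lower in line 8542 (limma adjusted p = 0.00434), and no endothelial marker was called. The part of these markers in the line difference of the D cyclins was not tested.

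**Figure D2:**
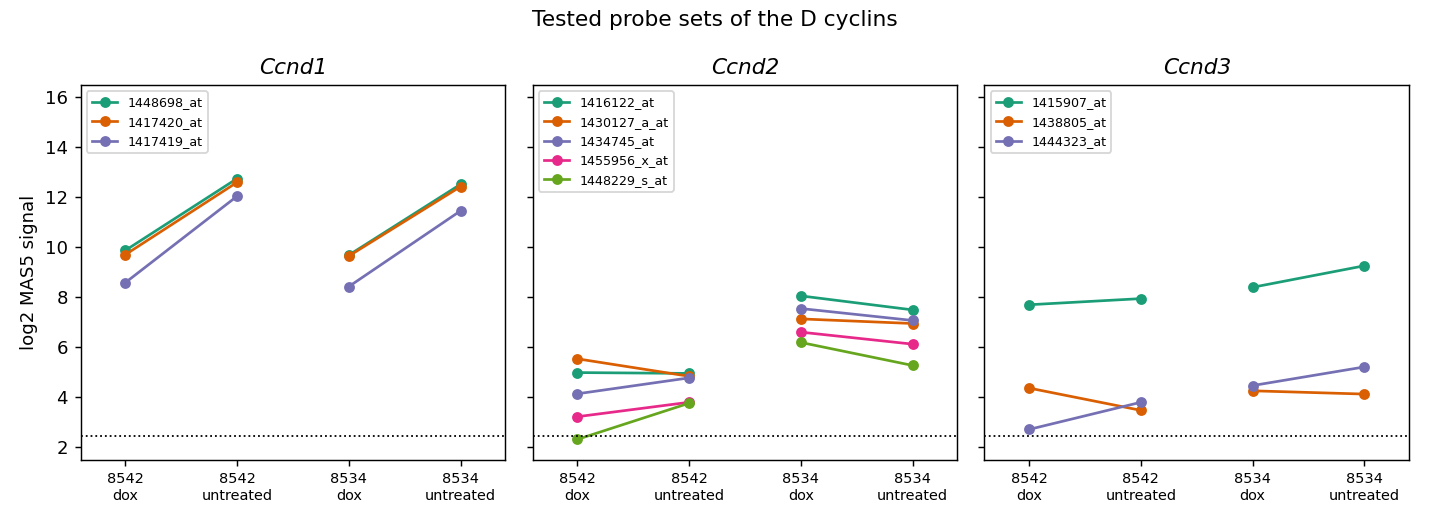
Log2 MAS5 signal of the tested probe sets of Ccnd1, Ccnd2 and Ccnd3 on the 4 arrays, ordered by line and then by condition, 1 point per array, with lines joining dox and untreated cells of 1 cell line. The dotted line is the 20th percentile of all values (2.47). Ccnd1 is lower with doxycycline in each line, whereas the probe sets of Ccnd2 separate by line.

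Both E-type cyclins fell. Cyclin E1 and cyclin E2 are the partners of CDK2 at the start of S phase. The lead probe set of Ccne1 (1441910_x_at) was at 44.6 and 48.2 units in treated 8534 and 8542 cells, against 132 and 188 units in untreated cells. Its second probe set (1416492_at) was at 20.2 and 17.4 units in treated and 85.1 and 104 units in untreated cells. Treated and untreated signals did not overlap for either. The mean log2 fold changes were -1.76 ± 0.28 and -2.33 ± 0.36 (SD, n = 2 lines; limma adjusted p = 0.00331 and 0.00342), which is 2.95-fold and 3.89-fold lower by the first probe set and 4.21-fold and 6.01-fold lower by the second, in lines 8534 and 8542. Ccne2, measured by 1 probe set (1422535_at), was at 12.4 and 13.9 units in treated and 66.5 and 70.5 units in untreated 8534 and 8542 cells. It fell 5.35-fold and 5.06-fold, which averages to -2.38 ± 0.06 on the log2 scale (limma adjusted p = 0.00505). With a pseudocount of 5.52 units it was -1.99 on the log2 scale.

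Of the 3 kinases, Cdk2 and Cdk6 fell and Cdk4 did not pass the test. Cdk2 (1416873_a_at) was at 133 and 113 units in treated 8534 and 8542 cells, against 308 and 310 units in untreated cells. The untreated levels of the lines were nearly equal, and the treated signals were 2.31-fold and 2.75-fold lower (mean log2 change -1.33 ± 0.18; limma adjusted p = 0.00335). The other probe set of Cdk2 (1447617_at) lay under the filter, with 0.10 and 0.49 units in treated and 3.80 and 1.38 units in untreated cells. Over the mean of both probe sets Cdk2 did not pass (adjusted p = 0.079). That mean includes signals all under the 20th percentile.

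Cdk6, an alternative partner of the D cyclins, was at 638 and 450 units in treated and 1481 and 1279 units in untreated 8534 and 8542 cells by its lead probe set (1455287_at). It was at 650 and 492 units in treated and 1440 and 1174 units in untreated cells by 1435338_at. The falls were 2.32-fold and 2.84-fold by the first and 2.21-fold and 2.39-fold by the second, with mean log2 fold changes of -1.36 ± 0.21 and -1.20 ± 0.08 (SD, n = 2 lines; limma adjusted p = 0.00138 and 0.00156). The third probe set (1460291_at), at 12.7 to 23.5 units, was 1.65-fold and 1.51-fold lower in lines 8534 and 8542 and did not pass (limma adjusted p = 0.474).

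Cdk4 was at 1349 and 1405 units in treated 8534 and 8542 cells, against 1620 and 1526 units in untreated cells, by its lead probe set (1422441_x_at). The change averaged -0.19 ± 0.10 on the log2 scale (SD, n = 2 lines; 95% interval -0.45 to 0.07; limma adjusted p = 0.369). That interval rests on a variance moderated over other probe sets, so it does not by itself exclude a 2-fold change. For 1422439_a_at and 1422440_at the mean changes were -0.09 (95% interval -0.35 to 0.17) and -0.07 (-0.36 to 0.22), with limma adjusted p = 0.703 and 0.807. Myc, the gene of a known activator of Cdk4, was at 137 and 134 units in treated and 289 and 369 units in untreated 8534 and 8542 cells (limma adjusted p = 0.00465).

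The retinoblastoma genes differed from each other. Rbl1, the gene of p107, was at 73.8 and 45.8 units in treated 8534 and 8542 cells, against 232 and 242 units in untreated cells (1424156_at). The untreated arrays were nearly level and both treated arrays lay well under them. Rbl1 fell 3.15-fold and 5.29-fold, which averages to -2.03 ± 0.53 on the log2 scale (SD, n = 2 lines; 95% interval -2.56 to -1.50; limma adjusted p = 0.00247). The call was lost over the mean of its 4 probe sets (adjusted p = 0.201). The other 3 lay under the filter, with signals of 1.24 to 19.7 units. Of these, 1454293_at was at 1.30 and 1.57 units in treated and 8.03 and 7.64 units in untreated cells, whereas 1432604_at and 1425166_at changed in opposite directions in the lines.

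Rb1, the gene of RB itself, was at 206 and 395 units in treated 8534 and 8542 cells, against 283 and 259 units in untreated cells (1417850_at). The untreated values lay between the treated ones. The log2 change was 0.61 in line 8542 and -0.46 in line 8534, a mean of 0.07 ± 0.76 (limma adjusted p = 0.904). Its 95% interval, -0.50 to 0.65, rests on a variance moderated over other probe sets. As the lines moved apart, that interval does not bound the change of Rb1. Of the 10 lead probe sets Rb1 was the 1 that changed in opposite directions in the lines, as did 32.4% of the lead probe sets of all genes and 34.3% of all tested probe sets. With 1 array per line and condition, no test of unequal responses was possible. The second probe set of Rb1 (1444400_at) was at or under 1.88 units on every array. Rbl2, the gene of p130 and the remaining pocket protein, was at 89.4 and 108 units in treated and 116 and 112 units in untreated 8534 and 8542 cells, and its log2 change averaged -0.22 (limma adjusted p = 0.587).

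**Figure D3:**
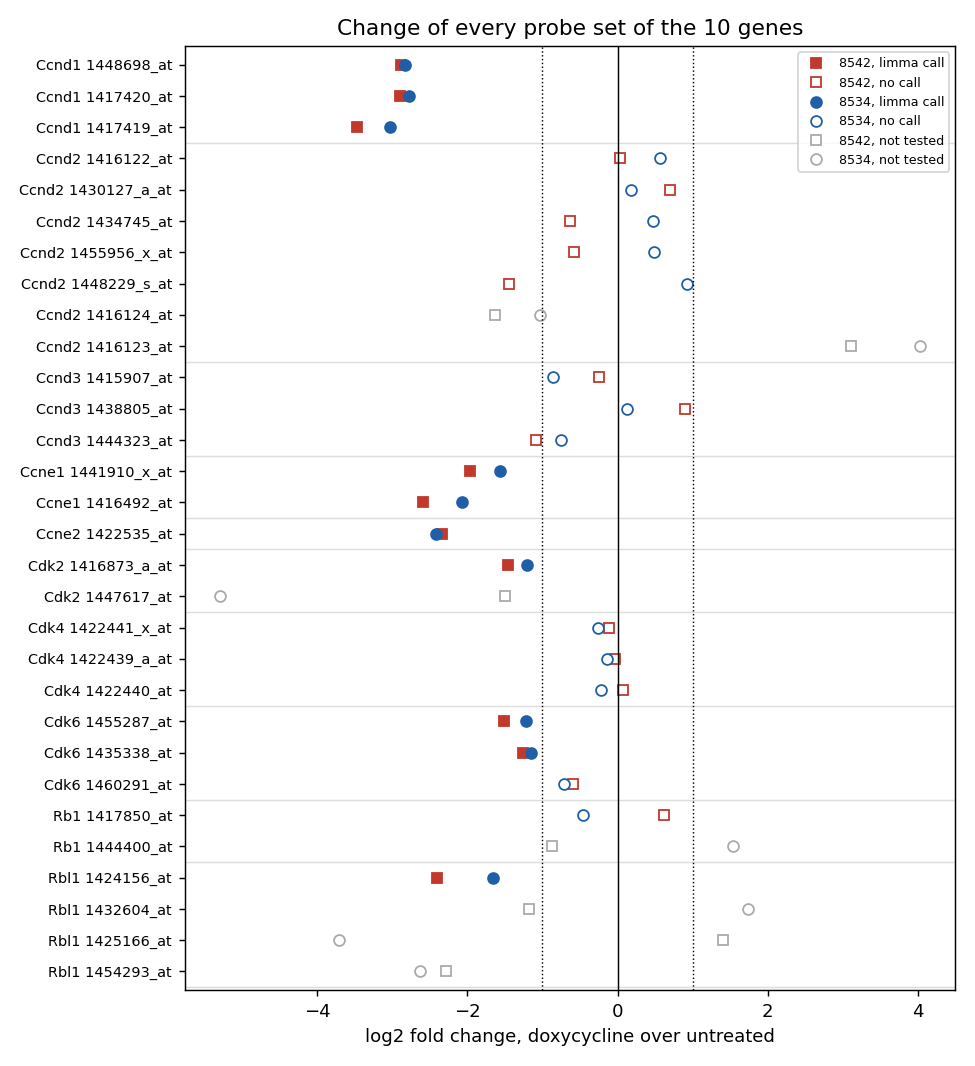
Log2 fold change (horizontal axis, doxycycline over untreated) of all 30 probe sets of the 10 genes, 1 square for line 8542 and 1 circle for line 8534. Filled symbols mark limma calls, open symbols no call, gray symbols probe sets under the expression filter, and dotted lines a 2-fold change. All 3 probe sets of Ccnd1 lie below -2.7, those of Cdk4 lie near 0, and the gray symbols scatter widely.

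The 7 probe sets under the filter were not tested. Of their 28 values 19 lay under 5.52 units and the highest was 19.7 units. One of them, 1416123_at of Ccnd2, was higher with doxycycline by 4.03 and 3.10 on the log2 scale in lines 8534 and 8542, but at 4.65 and 2.83 units in treated and 0.28 and 0.33 units in untreated cells.

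Other genes of the pathway were read from 8 lists, for lead probe sets and with the same fit. Over all genes tested that fit called 6.95% lower and 4.76% higher. The CDK inhibitors divided. Of 7 tested, 3 rose, 2 fell and 2 did not pass, with a median log2 change of 0.69 against 0.02 over all genes. Cdkn2a was at 156 and 171 units in treated and 71.5 and 63.6 units in untreated 8534 and 8542 cells, and Cdkn2b at 752 and 731 units in treated and 422 and 184 units in untreated cells. Cdkn2b and Cdkn2a, the genes of the INK4 proteins p15 and p16 (Cdkn2a also encodes ARF), rose by 1.41 ± 0.82 and 1.28 ± 0.21 on the log2 scale (SD, n = 2 lines; limma adjusted p = 0.0149 and 0.00799), and Cdkn1a, the gene of p21, rose by 0.88 ± 0.29 (limma adjusted p = 0.00716). Cdkn2d and Cdkn2c, the genes of the INK4 proteins p19 and p18, fell by 1.54 ± 0.21 and 1.01 ± 0.22 (limma adjusted p = 0.00271 and 0.00855). Cdkn1b, the gene of p27, was at 304 and 267 units in treated and 331 and 262 units in untreated 8534 and 8542 cells.

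Genes downstream of the pocket proteins were mostly lower with doxycycline. All 15 E2F-driven S phase genes tested fell, by at least 1.81 on the log2 scale. Their median change was -3.33 in 8542 cells and -2.61 in 8534 cells. Tk1, the gene of thymidine kinase, was at 67.8 and 22.9 units in treated and 1076 and 1119 units in untreated 8534 and 8542 cells (limma adjusted p = 0.000539). Of 7 cyclins, CDKs and CKS subunits of S and M phase, 6 fell and Ccna1 did not pass (limma adjusted p = 0.365). The median change was -2.85, and Cdk1, Ccna2 and Ccnb2 changed by -3.23, -3.07 and -2.85. Some treated signals lay under 5.52 units, and folds against that level are lower bounds. By these, Pole, a DNA polymerase subunit gene, was at least 30.4-fold lower in 8534 and at least 32.5-fold lower in 8542 cells. In 8542 cells Cdc6 was at least 35.6-fold and Ccnf at least 32.1-fold lower, and in 8534 cells, where their signals lay above that level, 5.44-fold and 5.34-fold lower. Of 10 E2F and DP genes, 5 fell and 5 did not pass. The repressor E2f8, at 3.94 and 3.27 units in treated and 133 and 123 units in untreated 8534 and 8542 cells, was at least 24.1-fold and 22.2-fold lower against the same level. The repressor E2f7 changed by -3.55 on the log2 scale, the activators E2f1 and E2f3 by -1.69 and -0.66, and the DP subunit gene Tfdp1 by -1.07.

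The next list held Rbl2, 5 subunits of the MuvB core, which is shared by the DREAM complex, and Mybl2, the gene of B-MYB, which binds that core outside DREAM. Of these 7 genes 3 fell, the core subunits Lin54 and Lin9 by 2.14 and 1.30 on the log2 scale and Mybl2 by 1.79. Of 9 genes of CDK activation, 4 fell and 5 did not pass. Those that fell were the inhibitory kinase gene Pkmyt1 (-2.76) and the phosphatase genes Cdc25c (-2.37), Cdc25b (-1.08) and Cdc25a (-0.93). The CDK-activating kinase subunits Cdk7, Ccnh and Mnat1 had log2 changes of 0.31, -0.03 and 0.21 and did not pass. Among 10 genes of cyclin turnover 1 was called, Fbxw7, where 4.76% of all genes tested were called higher. Fbxw7, whose protein marks cyclin E for degradation, rose 1.59-fold and 1.52-fold in lines 8534 and 8542 (limma adjusted p = 0.0414). Skp2, which marks p27, had a log2 change of -0.35 (limma adjusted p = 0.334). Of 15 transcriptional and other cyclins and CDKs 1 was called, Ccng1, a p53 target, which rose by 0.65 on the log2 scale (limma adjusted p = 0.0171), and the median change of that list was 0.12. With 1 call each, the turnover list and this list lie near the share of all genes called higher.

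**Figure D4:**
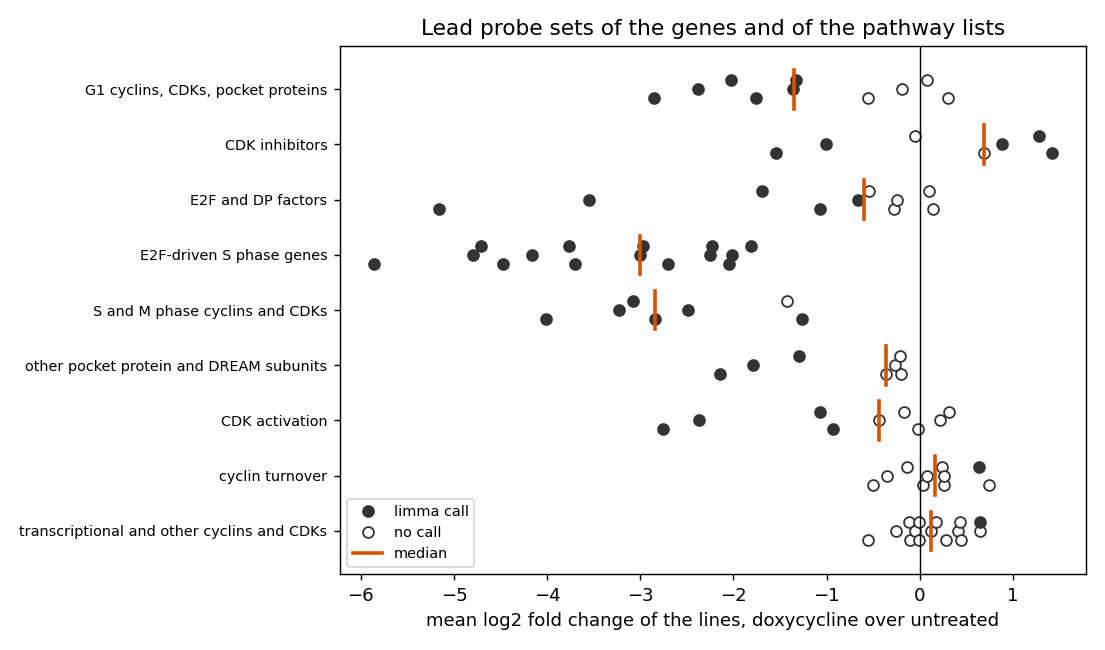
Mean log2 fold change over the 2 lines (horizontal axis, doxycycline over untreated) of the tested lead probe sets of the 10 genes and of 8 pathway lists, 1 point per gene, filled where limma called it. Orange bars are medians, -1.35 for the 10 genes, -2.85 for the S and M phase cyclins and CDKs and 0.12 for the transcriptional and other cyclins and CDKs.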

How the data were processed

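Total RNA of 2 cell lines, each treated with doxycycline or left untreated, was hybridized to 4 Affymetrix mouse arrays. The deposited values are MAS5 signals that the authors gave as log2, 1 column per array. Base 2 was inferred, as it gave 2% trimmed means of 97.3 to 101.3 units. The sources used here give neither a MAS5 version nor a scaling target, and no detection calls were used. An A version of the array is named in the study's methods, whereas 45101 probe sets were deposited. After 64 control probe sets were set aside, 45037 were kept, of which 34945 had 1 gene symbol in the probe annotation, and all 30 symbols of the member probe sets were current in RefSeq.

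The design was a linear model with terms for treatment and line in limma 3.58.1 (R 4.3.3), fitted to the 33778 probe sets that reached the 25th percentile by mean signal, with moderated variances (eBayes) and an intensity trend. It left 1 residual degree of freedom, to which moderation added 6.18. Line pairs the arrays, as treated and untreated cells were of 1 line, and its arrays deviated together (r = 0.36). Lines came from separate tumors with 1 array per condition, so the residual joins the spread between these lines with array noise. The p-values rest less on that residual than on the variance moderated over other probe sets. They do not measure the spread between the lines alone, and the number of arrays limits precision. The smallest exact p with 2 lines is 0.5. In data simulated for this design (33778 probe sets), 40% of log2 changes of 1 and 78% of changes of 2 were called, and 25.8% of calls were false. The simulation changed far fewer probe sets than the 1872 called lower and 1245 called higher here. These shares depend on that number and may differ for the calls in these data.

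Members and lists were chosen with earlier results of these data known. Genes were named by rule: all 10 members, the NOTCH check genes, up to 4 called genes with the largest changes in each list (every called gene where 5 or fewer were called), and the 5 nearest to Ccnd1. Others, such as Rbl2, Cdkn1b, Skp2, the CDK-activating kinase and single markers, were named after their values were seen. Ccnb1 had no probe set with a single symbol. No set test was run. Alternatives were filters on level, quantile normalization, median centring, no trend, no block, a floor or a pseudocount of 5.52 units, the mean of all probe sets of a gene, and lines or arrays left out.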

Additional observations from a re-analysis of the deposited data

Results flagged for a closer look

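Among the 30 probe sets, 8 changed in opposite directions in the lines, and this difference was not tested, for want of repeat arrays within a line. Of the 23 that were tested 5 did so, against 34.3% of all tested probe sets. Given as the change in line 8542 minus that in line 8534 on the log2 scale, the differences were -1.11, -1.06 and -2.37 for probe sets 1434745_at, 1455956_x_at and 1448229_s_at of Ccnd2, 0.29 for 1422440_at of Cdk4, and 1.07 for the lead probe set of Rb1. The remaining 3 lay under the expression filter, with differences of -2.41 for 1444400_at of Rb1 and of -2.91 and 5.11 for 1432604_at and 1425166_at of Rbl1.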

How the results depend on the processing

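The 6 genes called lower were also called under a filter at the 50th percentile, no filter, quantile normalization, median centring, a floor and a pseudocount. Over the mean of all probe sets 4 were called, without Cdk2 and Rbl1, and of 13645 genes tested in that fit 758 were called lower and 435 higher. Without the intensity trend limma called 0 of the 10 genes and 0 of all 33778 probe sets (adjusted p of 0.223 for Ccnd1). Of the pathway lists 35 genes were lower and 5 higher in the paired fit, and 0 and 0 without the trend. Without the replicate block 1 gene (Ccnd1, adjusted p = 0.0264) and 3 of its probe sets were called lower, and 5 pathway genes lower and 0 higher. Of all 33778 probe sets that fit called 83 lower and 9 higher. Leaving out 1 array without the replicate block left 1 array in a group, so only the changes are given for those fits. With 1 line left out no test was possible. In each line alone 6 genes were past 2-fold on the lower side, and the share of all genes in a single line was not counted. Over these settings the log2 change ran from -2.97 to -2.74 for Ccnd1, from -1.24 to 1.83 for Ccnd2, from -1.21 to 0.10 for Ccnd3 and from -0.46 to 0.61 for Rb1. The direction of Ccnd2 (-1.24 and -0.97) and of Ccnd3 (0.10) turned where an array was left out of the unpaired fit, which mixes the line difference into the change. The sign of Rb1 turned without line 8542 (-0.46) and, unpaired, without its treated array (-0.40). Of the 2 genes called lower in line 8542, 1 (Ccnd2) was called with no filter on level and 1 over the mean of all probe sets (adjusted p = 0.0497), and 0 without the trend. The cause of the other shifts was not tested. Signals under 5.52 units limit the ratios of dim probe sets.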
